A study of Mus musculus with 6 samples.

Results

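The 5 respiratory complexes of the inner mitochondrial membrane are described here through the genes in the nucleus that encode their subunits and several of their assembly factors, together with cytochrome c. Members were the protein-coding rows of the count table whose symbols fit the names of complex I (Ndufa, Ndufb, Ndufc, Ndufs, Ndufv), complex II (Sdha to Sdhd), complex III (Uqcr, Uqcc, Cyc1), cytochrome c (Cycs), complex IV (Cox4 to Cox8) and complex V (Atp5). The rule found 99 of 54532 rows: 44 for complex I, 4 for complex II, 12 for complex III, 1 for cytochrome c, 20 for complex IV and 18 for complex V. Ndufa4 and Ndufa4l2 were placed with complex IV, the complex to which Ndufa4 protein is now assigned. A further 13 rows with such names were not protein-coding and were left out.

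TM3 is a line of Leydig cells from the immature mouse testis, the cell type that makes testosterone, and pyrotinib is an irreversible inhibitor of ErbB family kinases used against HER2-positive breast cancer. TM3 cells were given 100 nM pyrotinib or, as the control, 0.1‰ dimethyl sulfoxide (DMSO), and RNA was taken after 48 h. There were 3 libraries in each group, all of poly(A)-selected RNA from the same line in the same culture medium. The labels do not say whether the pyrotinib cells also received DMSO, nor whether the replicates were separate cultures, and the p-values below therefore cover the spread among these libraries alone.

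Respiration moves electrons from NADH (complex I) and succinate (complex II) through ubiquinone to complex III, then by cytochrome c to complex IV and oxygen, and complex V makes ATP from the proton gradient that builds up on the way. Complexes I, III, IV and V each combine nuclear-encoded subunits with subunits encoded in mitochondrial DNA, while complex II is wholly nuclear. In Leydig cells, steroid synthesis begins inside mitochondria and needs their membrane potential. Many nuclear genes of these complexes carry binding sites for the factors NRF1, GABP (an ETS factor) and YY1 near their start sites.

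Libraries held 15488289 to 16118922 counts with pyrotinib and 15005737 to 16171030 with DMSO. Leydig markers were nearly absent: over all 6 libraries Star had 266 reads, Insl3 247 and the other 7 of 9 markers from 0 to 19, with Hsd3b6 and Lhcgr at 0. The list summed to 100 to 121 reads per library with pyrotinib and 69 to 86 with DMSO. The 4 fibroblast genes examined were abundant in both groups, Col1a1 averaging 8414 CPM with pyrotinib and 8944 CPM with DMSO. Of 6 Sertoli markers, Wt1 was expressed and rose (155 CPM with pyrotinib, 114 with DMSO, adjusted p = 0.0010), while Amh, Dhh, Sox9, Cldn11 and Fshr had from 0 to 9 reads in all; marker lists for germ cells, macrophages and endothelium summed to at most 64 reads in any library, and none of 4 peritubular myoid and smooth muscle markers was called. Relative to the mean of the DMSO libraries, expression changed with transcript GC content per 10 percentage points by -0.23, -0.0011 and -0.27 (log2) in the pyrotinib libraries, in the order of their replicate numbers. In the DMSO libraries, each set against the mean of the other DMSO libraries, it changed by -0.0096, 0.03 and -0.02. Pyrotinib replicate 2 thus stood apart from the other pyrotinib libraries, and results that rest on it or on them are given with that in view. The part of these trends in the results below was not tested beyond the corrections reported.

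The promoters of 5 members, chosen after seeing values, are printed as a description. They are those of Ndufs6, Uqcc2, Cycs and Cox5b, which had the largest falls among members that passed the test, and that of Ndufaf1, which had the largest rise. Whether these sequences bear on the measured changes was not tested. Each sequence is the 250 bases before the RefSeq start of the gene (GRCm38.p6), 5′ to 3′ on the strand of the gene. Capitals mark a match to the NRF1 motif GCGCNTGCG on either strand. The windows are chr13:73328483-73328732 (minus strand) for Ndufs6, chr17:27133892-27134141 (minus) for Uqcc2, chr6:50566570-50566819 (minus) for Cycs, chr1:36691237-36691486 (plus) for Cox5b and chr2:119662835-119663084 (minus) for Ndufaf1.
Ndufs6: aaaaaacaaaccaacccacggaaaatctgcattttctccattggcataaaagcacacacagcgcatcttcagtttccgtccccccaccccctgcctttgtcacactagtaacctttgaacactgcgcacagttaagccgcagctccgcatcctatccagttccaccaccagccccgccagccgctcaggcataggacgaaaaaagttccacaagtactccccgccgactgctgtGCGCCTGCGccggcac
Uqcc2: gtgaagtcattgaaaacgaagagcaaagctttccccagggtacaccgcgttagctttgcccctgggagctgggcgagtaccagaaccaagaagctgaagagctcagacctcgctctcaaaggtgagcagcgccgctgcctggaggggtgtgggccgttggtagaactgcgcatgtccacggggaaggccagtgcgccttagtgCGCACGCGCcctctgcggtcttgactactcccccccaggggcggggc
Cycs: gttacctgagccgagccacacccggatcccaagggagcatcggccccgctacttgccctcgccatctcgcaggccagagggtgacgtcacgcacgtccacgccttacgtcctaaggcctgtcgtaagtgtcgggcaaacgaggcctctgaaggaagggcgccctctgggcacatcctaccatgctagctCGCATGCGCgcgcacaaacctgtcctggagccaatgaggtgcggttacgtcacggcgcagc
Cox5b: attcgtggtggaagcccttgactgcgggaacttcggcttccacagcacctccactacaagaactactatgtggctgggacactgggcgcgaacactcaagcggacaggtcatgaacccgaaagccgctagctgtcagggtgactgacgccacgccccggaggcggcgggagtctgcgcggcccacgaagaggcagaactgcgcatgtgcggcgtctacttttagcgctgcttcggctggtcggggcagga
Ndufaf1: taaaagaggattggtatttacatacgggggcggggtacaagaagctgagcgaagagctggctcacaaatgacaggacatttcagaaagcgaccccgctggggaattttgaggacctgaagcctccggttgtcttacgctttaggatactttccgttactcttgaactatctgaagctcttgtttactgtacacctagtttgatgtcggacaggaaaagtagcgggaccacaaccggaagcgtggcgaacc

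The match lies 16 bases before the start in Ndufs6, 47 in Uqcc2 and 61 in Cycs, counting to its first base on the gene's strand. In Ndufs6 a YY1 motif (AANATGGCG) also begins at base 34 after the start, outside the printed stretch. The printed promoters of Cox5b and Ndufaf1 hold none of the letters searched.

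Of the 99 members, 92 had enough reads to be tested. Their level per kilobase, as the authors' FPKM, spanned a 152-fold range with DMSO. The highest by their DMSO mean were Cox8a, Atp5b, Cox4i1, Cox6a1, Atp5g2 and Atp5a1. Cox8a averaged 142 FPKM with pyrotinib and 188 with DMSO, the catalytic F1 beta subunit Atp5b 153 with pyrotinib and 186 with DMSO, and Cox4i1 138 with pyrotinib and 162 with DMSO. At the other end stood assembly factors and tissue isoforms: Ndufaf2 at 1.08 FPKM with pyrotinib and 1.23 with DMSO, Ndufaf4 at 1.61 with pyrotinib and 1.27 with DMSO, and Ndufa4l2 at 1.197 with pyrotinib and 1.38 with DMSO. Cycs was low per kilobase as well, with 1.63 FPKM with pyrotinib and 2.59 with DMSO. It has processed pseudogene copies, and the handling of multi-mapped reads is not given, so this level is uncertain.

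**Figure D1:**
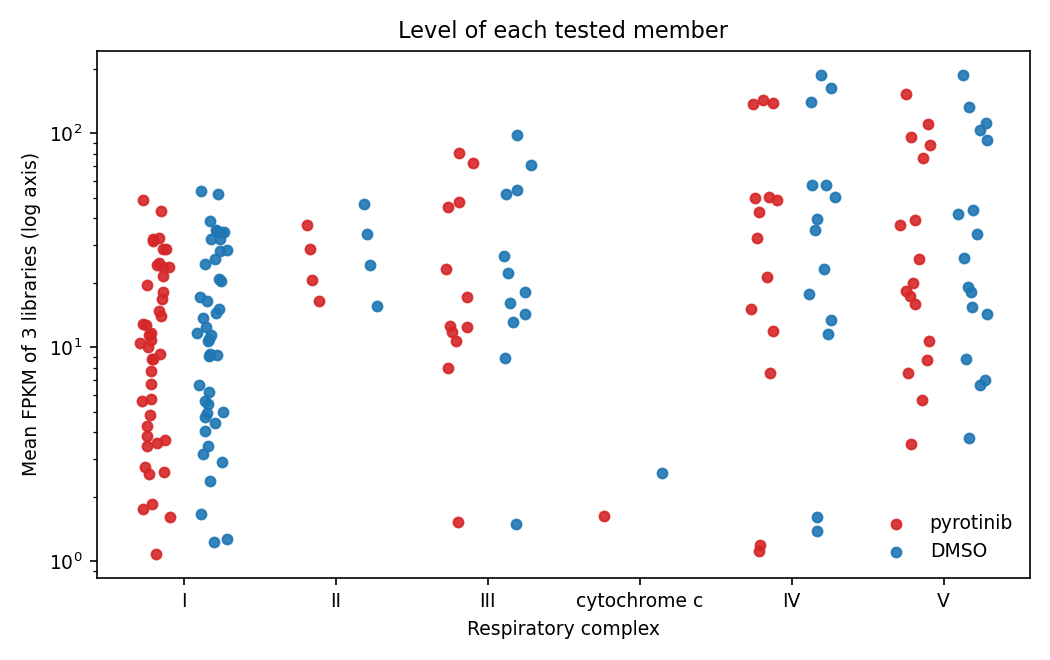
Mean FPKM of 3 libraries (log axis) for each of the 92 tested members by respiratory complex, pyrotinib at the left and DMSO at the right of each pair of columns. The most abundant members belong to complexes IV and V and reach 188 FPKM with DMSO.

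Most nuclear-encoded members had less messenger RNA with pyrotinib, by small amounts, and the medians of complexes I to V all lay below zero. By edgeR's quasi-likelihood test with Benjamini-Hochberg adjustment over the 14125 genes tested and a threshold of 0.05 ("called" below), 18 of 92 members fell and 0 rose. That is 19.6% lower, against 12.8% of all genes tested called lower and 13.2% called higher. At an unadjusted p under 0.05 by the same test, 33 members were lower and 2 were higher (Atp5s and Ndufaf1). The share of all genes at that unadjusted p was not counted, so these numbers have no background to be read against. DESeq2 and limma-voom each called 16 lower and 0 higher. Single libraries moved the count. Leaving out DMSO replicate 1, 2 or 3 gave 15, 6 or 9 lower members, where 10.5%, 6.81% and 8.45% of all genes were lower. Leaving out pyrotinib replicate 1, 2 or 3 gave 10, 27 or 7, where 8.50%, 17.9% and 7.13% of all genes were. Without DMSO replicate 2 or pyrotinib replicate 3, the members were thus called lower about as often as all genes. In bulk RNA, fewer cells of a type and less of an RNA per cell cannot be told apart.

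The median log2 fold change of the 92 members was -0.18, against 0.0022 over all genes tested, and 77 members lay below zero and 15 above. Groups did not overlap, with pyrotinib lower, for 26 members (28.3%, against 20.3% of all genes), and with pyrotinib higher for 2 members (2.17%, against 20.6%), the core subunit Ndufs1 and the assembly factor Ndufaf1. Relative to the DMSO mean, the median member stood at -0.18, -0.13 and -0.22 (log2) in pyrotinib replicates 1, 2 and 3 and at -0.12, 0.08 and 0.03 in DMSO replicates 1, 2 and 3. All 3 pyrotinib libraries were below all 3 DMSO libraries, but DMSO replicate 1 was nearer to pyrotinib replicate 2 than to the other DMSO libraries. Below the DMSO mean were 68, 72 and 74 of the 92 members in pyrotinib replicates 1, 2 and 3, where 49.2% to 49.5% of all genes were.

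Together the 99 members took 0.444%, 0.465% and 0.448% of counts in pyrotinib replicates 1, 2 and 3, while they took 0.478%, 0.522% and 0.511% in DMSO replicates 1, 2 and 3. Complex V held the largest part, with 0.196% ± 0.00718 of counts with pyrotinib and 0.223% ± 0.00918 with DMSO (SD, n = 3 each). Complex I followed with 0.105% ± 0.00365 with pyrotinib and 0.116% ± 0.00396 with DMSO. For complex IV the groups overlapped, since pyrotinib replicates 1 and 2 had 0.0748% and 0.0749% and DMSO replicate 1 had 0.0733%.

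**Figure D2:**
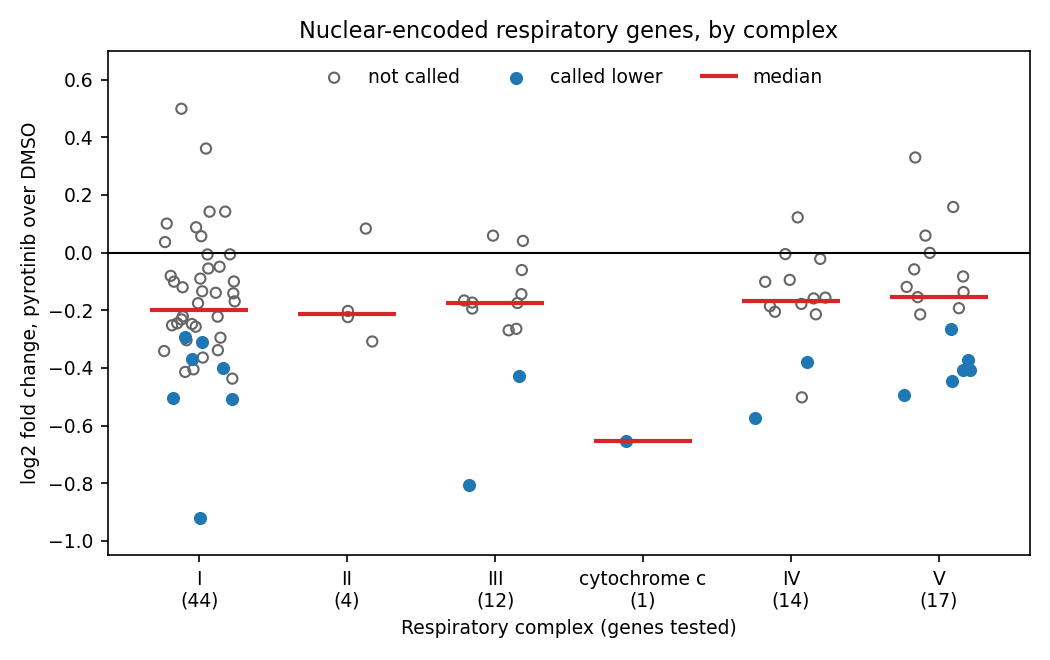
Log2 fold change of each of the 92 tested members, pyrotinib over DMSO, by respiratory complex, with filled points for the 18 members called lower, open points for the others and a bar at the median of each complex. Medians of complexes I to V lie between -0.21 and -0.15, and the deepest points are Ndufs6 (-0.92), Uqcc2 (-0.80) and Cycs (-0.65).

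Complex I accepts electrons from NADH. Its 44 members gave 7 lower calls and none higher, a share of 15.9% lower, against 12.8% of all genes tested. The median log2 fold change was -0.20, and 36 members lay below zero. The calls lay in the accessory subunits: 4 of 9 in the peripheral arm, which reaches into the matrix (Ndufs6, Ndufa2, Ndufv3 and Ndufs4), and 3 of 19 in the membrane arm (Ndufs5, Ndufb10 and Ndufa11). None of the 7 core subunits that carry the flavin, the iron-sulfur clusters and the quinone site was called, and none of the 8 assembly factors. Whether accessory and core subunits differed in response was not tested.

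Ndufs6 (ENSMUSG00000021606, chromosome 13, 73319838 to 73328542, mm10), an accessory subunit of the peripheral arm, had the largest fall among all members. It had 1.92, 2.64 and 2.26 CPM in pyrotinib replicates 1, 2 and 3, against 4.66, 4.54 and 3.74 CPM in DMSO replicates 1, 2 and 3. The groups were apart, at a low level, and the fall was 1.89-fold (log2 fold change -0.92 ± 0.26 SE, adjusted p = 0.014).

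Ndufa2, another peripheral accessory subunit, had 10.7, 16.3 and 14.8 CPM with pyrotinib, against 20.8, 19.8 and 18.7 CPM with DMSO (log2 fold change -0.50 ± 0.15 SE, adjusted p = 0.018). Ndufv3 had 51.6, 72.0 and 52.1 CPM with pyrotinib, against 69.7, 83.3 and 79.2 CPM with DMSO (log2 fold change -0.40, adjusted p = 0.018). For Ndufa2 the groups were apart, while for Ndufv3 pyrotinib replicate 2 lay above DMSO replicate 1. Ndufs4, loss of which causes a Leigh-like brain disease in mice and humans, had 26.4, 27.5 and 26.6 CPM with pyrotinib, against 33.2, 33.8 and 31.6 CPM with DMSO (log2 fold change -0.29, adjusted p = 0.044), both groups being tight.

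In the membrane arm, Ndufs5 had 7.55, 9.65 and 11.8 CPM with pyrotinib, against 12.9, 14.3 and 14.0 CPM with DMSO (log2 fold change -0.51, adjusted p = 0.029). Ndufb10 had 21.6, 29.1 and 26.5 CPM with pyrotinib, against 31.3, 36.0 and 32.4 CPM with DMSO (log2 fold change -0.37, adjusted p = 0.031). Both pairs of groups were apart. Ndufa11 averaged 20.95 CPM with pyrotinib and 26.0 CPM with DMSO (log2 fold change -0.31, adjusted p = 0.049).

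Every complex I call was lost in at least 3 of the 6 fits that leave out 1 library. Ndufs6 lost it without DMSO replicate 1 or 2 or pyrotinib replicate 1 (adjusted p = 0.051 to 0.056), and Ndufa2 without the same libraries (0.058 to 0.098). Ndufs5 lost it without DMSO replicate 2 or 3 or pyrotinib replicate 1 (0.082 to 0.14), Ndufv3 and Ndufb10 without those or pyrotinib replicate 3 (0.062 to 0.105 and 0.068 to 0.169), and Ndufs4 and Ndufa11 without any library other than pyrotinib replicate 2 (0.089 to 0.133 and 0.062 to 0.197). After the GC correction Ndufb10 and Ndufa11 no longer passed (adjusted p = 0.060 and 0.288). After a correction for GC and length, Ndufa2, Ndufs5, Ndufb10 and Ndufa11 did not pass.

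Among the core subunits, log2 fold changes ran from -0.25 to 0.10. Ndufv2, an iron-sulfur subunit beside the flavin site, had the lowest value, with 54.4, 60.7 and 67.0 CPM with pyrotinib, against 66.4, 79.5 and 71.1 CPM with DMSO (adjusted p = 0.070), and its groups overlapped. Ndufs1, the largest iron-sulfur subunit, had 45.0, 45.5 and 47.1 CPM with pyrotinib, against 44.1, 44.2 and 40.1 CPM with DMSO (log2 fold change 0.10, adjusted p = 0.463), so its pyrotinib libraries all lay slightly higher. Ndufv1, Ndufs3, Ndufs7 and Ndufs8 had log2 fold changes from -0.23 to -0.08.

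The assembly factors of complex I had log2 fold changes from -0.44 to 0.50. Ndufaf1 (ENSMUSG00000027305, chromosome 2, 119655446 to 119662827), needed early in building the membrane arm, had 6.78, 7.19 and 7.54 CPM with pyrotinib, against 4.53, 5.18 and 5.49 CPM with DMSO. All pyrotinib libraries were above all DMSO libraries, and the log2 fold change of 0.50 ± 0.19 SE just missed the threshold (adjusted p = 0.056). It passed by limma-trend on the FPKM table with its filter and after a correction for GC and length (adjusted p = 0.048). Ndufaf5, at 5.18, 6.14 and 6.97 CPM with pyrotinib, against 7.20, 9.66 and 7.92 CPM with DMSO, was apart the other way (log2 fold change -0.44, adjusted p = 0.094).

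Complex II, succinate dehydrogenase, also works in the TCA cycle. None of its 4 members was called, with log2 fold changes from -0.31 to 0.08. Sdha, the flavoprotein that oxidises succinate, had 109, 127 and 117 CPM with pyrotinib, against 128, 141 and 137 CPM with DMSO, groups that just stayed apart (log2 fold change -0.20, adjusted p = 0.091). Sdhd, a membrane anchor, had 41.8, 50.02 and 43.3 CPM with pyrotinib, against 46.3, 65.0 and 56.1 CPM with DMSO (log2 fold change -0.31, adjusted p = 0.060). The iron-sulfur subunit Sdhb averaged 36.1 CPM with pyrotinib and 34.1 CPM with DMSO (adjusted p = 0.620). After the GC correction 2 of the 4 passed, both lower.

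Complex III passes electrons from ubiquinol to cytochrome c. Of its 12 members 2 were called lower (16.7%, against 12.8% of all genes tested), the assembly factor Uqcc2 and the small accessory subunit Uqcrb. The median was -0.17. Uqcc2 (ENSMUSG00000024208, chromosome 17, 27122663 to 27133916) takes part in the synthesis and assembly of cytochrome b, the subunit of complex III encoded in mitochondrial DNA. It had 9.53, 13.9 and 7.60 CPM in pyrotinib replicates 1, 2 and 3, against 17.7, 19.2 and 17.4 CPM in DMSO replicates 1, 2 and 3. Every pyrotinib library was below every DMSO library, with pyrotinib replicate 2 the nearest. The fall was 1.75-fold (log2 fold change -0.80 ± 0.18 SE), and no member had a smaller adjusted p (0.0029).

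Uqcc2 was called in all 6 fits without 1 library. The other assembly factors for this complex, Uqcc1 and Uqcc3, had log2 fold changes of 0.06 and -0.14 (adjusted p = 0.824 and 0.615). Uqcrb had 10.0, 10.3 and 10.3 CPM with pyrotinib, against 12.3, 16.8 and 12.3 CPM with DMSO (log2 fold change -0.43, adjusted p = 0.0499), so DMSO replicate 2 was high. Its call was lost in every fit without 1 library other than DMSO replicate 1 (adjusted p = 0.054 to 0.288), and its log2 fold change was -0.27 without DMSO replicate 2.

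The catalytic subunits of complex III were not called. Cyc1, cytochrome c1, had 52.6, 48.4 and 47.2 CPM with pyrotinib, against 56.8, 59.3 and 51.1 CPM with DMSO (log2 fold change -0.17, adjusted p = 0.193). Uqcrfs1, the Rieske iron-sulfur protein, had 65.6, 59.3 and 57.6 CPM with pyrotinib, against 69.2, 70.2 and 66.7 CPM with DMSO (log2 fold change -0.17, adjusted p = 0.157). Groups overlapped for Cyc1 and were apart for Uqcrfs1. The core proteins Uqcrc1 and Uqcrc2 had log2 fold changes of -0.06 and -0.17.

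Cycs (ENSMUSG00000063694, chromosome 6, 50562563 to 50566538) encodes cytochrome c, the soluble carrier between complexes III and IV that also triggers caspase activation once released from mitochondria. It had 6.33, 6.02 and 4.02 CPM with pyrotinib, against 9.13, 8.00 and 8.67 CPM with DMSO. The groups were apart and the fall was 1.57-fold (log2 fold change -0.65 ± 0.20 SE, adjusted p = 0.020). The call was lost without DMSO replicate 1 or 3 or pyrotinib replicate 3 (adjusted p = 0.058 to 0.107). With GC corrected for, the fall measured -0.83 (log2, adjusted p = 0.0048). Cycs has 9 processed pseudogene copies in the annotation, and their reads came to 2.57% of its own. That share cannot show reads left uncounted for matching several copies, so the level of Cycs is uncertain.

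Complex IV reduces oxygen. Of 14 tested members 2 were called lower (14.3%, against 12.8% of all genes tested), both usual isoforms of structural subunits. The median was -0.17, and 13 of 14 lay below zero. Cox5b, the zinc-binding subunit Vb, had 8.89, 15.9 and 11.0 CPM with pyrotinib, against 17.3, 16.8 and 19.2 CPM with DMSO (log2 fold change -0.57 ± 0.17 SE, adjusted p = 0.020). The groups were apart, but pyrotinib replicate 2 came close to the DMSO libraries, and taken alone against DMSO it gave -0.16 (adjusted p = 0.616). Cox5b lost its call without DMSO replicate 3 or pyrotinib replicate 1 or 3 (adjusted p = 0.081 to 0.106).

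Cox8a (ENSMUSG00000035885, chromosome 19, 7215158 to 7217616), the usual isoform of subunit VIII, had 75.5, 78.6 and 75.6 CPM with pyrotinib, against 89.6, 106 and 103 CPM with DMSO. The groups were apart, the pyrotinib libraries lay close together, and the log2 fold change was -0.38 ± 0.09 SE (adjusted p = 0.0047). It was called in all 6 fits without 1 library and after the GC correction, but not after a correction for GC and length (-0.08, adjusted p = 0.477), its transcript being 550 bases long. Cox4i1, the usual isoform of subunit IV, had 208, 221 and 205 CPM with pyrotinib, against 225, 257 and 253 CPM with DMSO (log2 fold change -0.21, adjusted p = 0.064), also apart.

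The isoforms of complex IV kept to the usual set. Cox4i2, Cox6b2, Cox7a1, Cox7b2, Cox8b and Cox8c, known from lung, muscle or testis, had from 0 to 8 reads over all 6 libraries and were not tested. Cox7a1, the heart and muscle isoform of subunit VIIa, had 0 reads in each pyrotinib library, against 2, 3 and 3 in the DMSO libraries, all at or below the 3 counts that a count of 0 allows. Cox6a2 and Ndufa4l2 passed the filter at 0.750 and 1.29 CPM with pyrotinib and 1.06 and 1.47 CPM with DMSO, against 95.2 and 44.2 CPM with pyrotinib and 95.5 and 47.2 CPM with DMSO for their usual relatives Cox6a1 and Ndufa4. Cox7a2l, which joins complexes III and IV in supercomplexes, had a log2 fold change of -0.02, but reads on its 2 pseudogene copies came to 93.8% of its own, so its level is uncertain.

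Complex V, the ATP synthase, gave 6 lower calls among 17 tested members (35.3%, against 12.8% of all genes tested) and none higher. Its median was -0.15. The calls fell in each structural unit: the F1 subunits Atp5d and Atp5b, the peripheral stalk subunits Atp5f1 and Atp5o, the c-ring gene Atp5g2 and the membrane subunit Atp5j2. Atp5f1 (ENSMUSG00000000563, chromosome 3, 105942698 to 105960099), subunit b of the stalk, had 95.3, 109 and 110 CPM with pyrotinib, against 131, 140 and 135 CPM with DMSO. Its groups were well apart (log2 fold change -0.37 ± 0.09 SE, adjusted p = 0.0043).

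Atp5d (ENSMUSG00000003072, chromosome 10, 80138632 to 80145818), a rotor subunit, had 132, 173 and 134 CPM with pyrotinib, against 188, 203 and 191 CPM with DMSO (log2 fold change -0.41 ± 0.10 SE, adjusted p = 0.0061). The groups were apart, with pyrotinib replicate 2 nearest to DMSO. Atp5d and Atp5f1 were called in all 6 fits without 1 library. Atp5b, the catalytic beta subunit and the most abundant member by CPM, had 615, 664 and 643 CPM with pyrotinib, against 725, 824 and 759 CPM with DMSO (log2 fold change -0.26, adjusted p = 0.020), also apart. Its partner in the catalytic hexamer, Atp5a1, had 346, 332 and 349 CPM with pyrotinib, against 339, 348 and 339 CPM with DMSO (log2 fold change -0.0010, adjusted p = 0.994), and the rotor subunit Atp5c1 had -0.06 (adjusted p = 0.634).

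Subunit c is encoded by 3 genes that yield the same mature protein. Atp5g2 had 147, 188 and 141 CPM with pyrotinib, against 188, 241 and 219 CPM with DMSO (log2 fold change -0.45, adjusted p = 0.0067), with pyrotinib replicate 2 just above DMSO replicate 1. By summed FPKM it supplied 67.1%, 73.7% and 65.7% of subunit c message in pyrotinib replicates 1, 2 and 3, compared with 72.1%, 75.0% and 73.3% in DMSO replicates 1, 2 and 3. Atp5g3 and Atp5g1 had log2 fold changes of -0.14 and -0.08 (adjusted p = 0.253 and 0.670), and reads on the pseudogene copies of Atp5g1 came to 84.7% of its own.

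Atp5o, which links the stalk to F1, had 28.7, 49.2 and 28.6 CPM with pyrotinib, against 47.8, 56.6 and 45.7 CPM with DMSO (log2 fold change -0.49, adjusted p = 0.031). Here pyrotinib replicate 2 lay among the DMSO libraries and alone gave -0.02 (adjusted p = 0.950); 47.9% of the exon length of Atp5o overlaps another gene, and a second row of the same name had 0 reads. Atp5j2, subunit f, had 33.3, 40.8 and 30.2 CPM with pyrotinib, against 44.1, 49.4 and 44.9 CPM with DMSO (log2 fold change -0.41, adjusted p = 0.014), groups apart. In the other direction, coupling factor B, Atp5s, had 19.3, 13.2 and 20.04 CPM with pyrotinib, against 14.5, 13.0 and 14.3 CPM with DMSO (log2 fold change 0.33, adjusted p = 0.122); it overlapped through pyrotinib replicate 2 and passed without it.

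Of these complex V calls, Atp5g2 lost its own without DMSO replicate 2 or pyrotinib replicate 3 (adjusted p = 0.051 and 0.052). Atp5j2 lost it without DMSO replicate 2 or pyrotinib replicate 1 or 3 (0.056 to 0.089), Atp5b without those or DMSO replicate 3 (0.068 to 0.0998), and Atp5o without any library other than DMSO replicate 3 or pyrotinib replicate 2 (0.051 to 0.166).

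**Figure D3:**
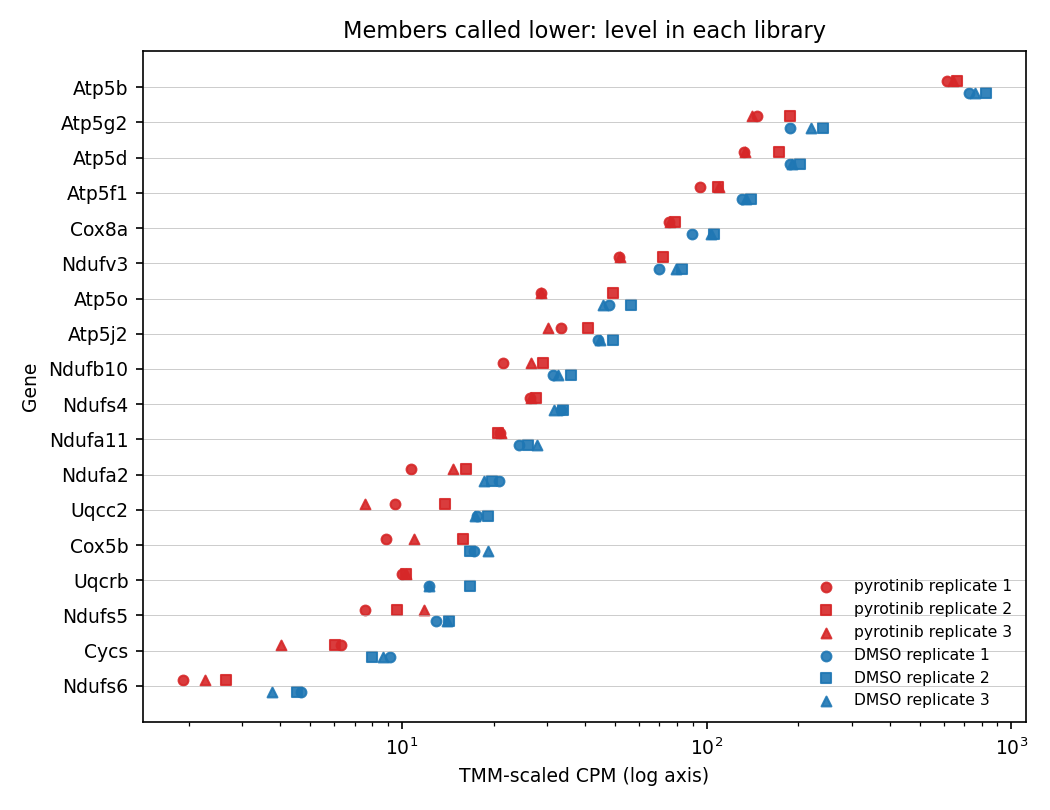
TMM-scaled CPM (log axis) of the 18 members called lower in each library, with pyrotinib above DMSO in each row and 1 marker shape per replicate number. The groups are apart for 15 members and overlap for Ndufv3, Atp5g2 and Atp5o, and pyrotinib replicate 2 is the highest pyrotinib library for 14 of the 18.

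The size of these falls was small and uneven across the pyrotinib libraries. Among the 18 called members the fall ran from 1.2-fold to 1.89-fold, with a median of 1.34-fold. Their median stood at -0.55, -0.27 and -0.48 log2 units relative to the DMSO mean in pyrotinib replicates 1, 2 and 3. In a fit of pyrotinib replicate 2 alone against the 3 DMSO libraries, all 18 stayed below zero but 0 of them passed, and the single member called was Ndufb11, a membrane arm subunit of complex I (log2 fold change -0.41, adjusted p = 0.049). The lone library is there assumed to vary like the DMSO libraries.

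Subunits encoded in mitochondrial DNA moved the other way. All 12 tested mitochondrial mRNAs of complexes I, III, IV and V were called higher, against 13.2% of all genes tested. The median of these mRNAs stood at 1.08, 0.54 and 0.99 (log2) in pyrotinib replicates 1, 2 and 3. It stood at 0.09, -0.18 and 0.08 in DMSO replicates 1, 2 and 3, so pyrotinib replicate 2 was the nearest to DMSO. Set against each other within complex I, mitochondrial reads were 13.2, 8.37 and 12.6 times the nuclear-encoded reads with pyrotinib, and 5.93, 4.57 and 5.53 times with DMSO. In complex III the ratio was 6.997, 5.67 and 7.31 with pyrotinib and 3.69, 2.85 and 3.63 with DMSO, and in complex IV 19.3, 16.3 and 22.2 with pyrotinib and 14.0, 12.1 and 11.7 with DMSO. The groups were apart in all of these complexes and in complex V, where few mitochondrial reads were counted. These are ratios of reads from poly(A)-selected RNA, not of molecules or protein.

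Both sets were measured again after the GC correction. The library medians of the mitochondrial mRNAs were then 0.68, 0.48 and 0.56 with pyrotinib, against 0.08, -0.15 and 0.06 with DMSO, and 10 of the 12 passed (mt-Co2 and mt-Atp6 did not; mt-Atp6 also lost its call without DMSO replicate 2 or pyrotinib replicate 1, adjusted p = 0.062 and 0.064). For the nuclear-encoded members the same correction left library medians of -0.12, -0.13 and -0.17 with pyrotinib, against -0.12, 0.07 and 0.03 with DMSO. DMSO replicate 1 then lay close to pyrotinib replicates 1 and 2.

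**Figure D4:**
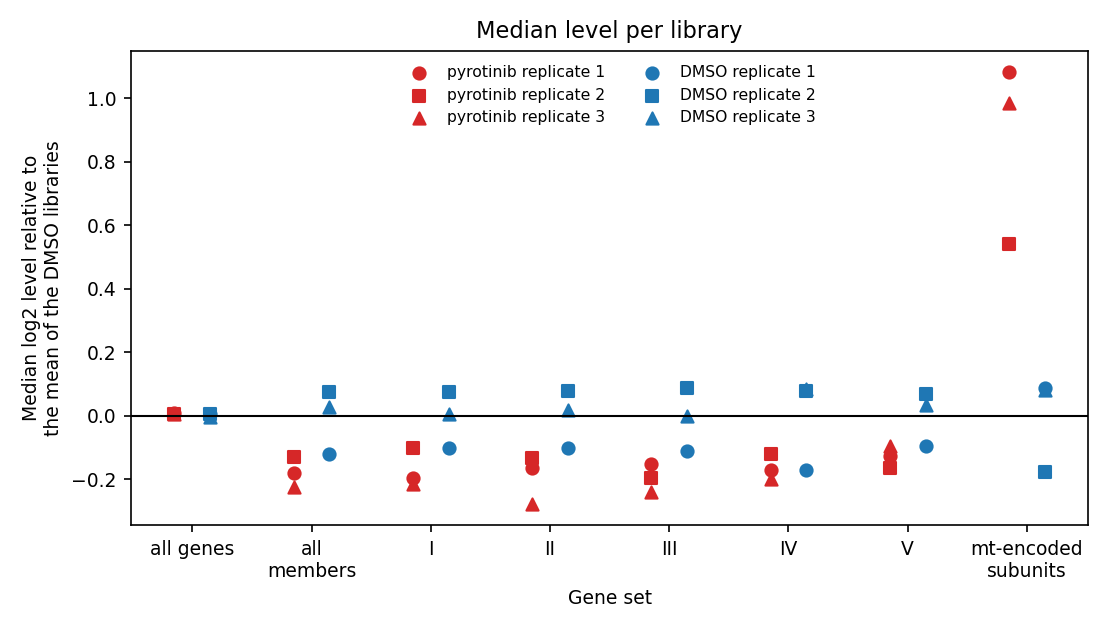
Median log2 level of each gene set per library relative to the mean of the DMSO libraries, pyrotinib left of DMSO, for all 14125 genes tested, the 92 members, complexes I to V and the 12 tested mitochondrially encoded subunits. Members lie at -0.18, -0.13 and -0.22 with pyrotinib and at -0.12, 0.08 and 0.03 with DMSO, while mitochondrially encoded subunits lie at 0.54 to 1.08 with pyrotinib.

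Members share features that the naming rule did not use. Their transcripts were short, with a median of 1171 bases against 3097 bases for all genes tested, and their GC content was close to the rest (50.01% against 49.2%). Level relative to the DMSO mean also changed with length: per 10-fold longer transcript by 0.24, 0.14 and 0.26 (log2) in pyrotinib replicates 1, 2 and 3. For DMSO replicates 1, 2 and 3 the change was 0.15, -0.13 and -0.02. Each DMSO library was there set against the mean of the other DMSO libraries, so the references of the groups differ. Across the 92 members, which share libraries and depth, log2 fold change had a Pearson correlation of 0.19 with log10 length and -0.15 with GC content; over all genes these were 0.15 and -0.22.

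Correcting each library for GC content alone gave 27 members lower, 16 of them among the 18, and a median of -0.17. In that fit 14.5% of all genes tested were lower. Correcting for GC and then for length gave 19 lower, 12 of them among the 18, and 3 higher (Ndufaf1, Cox6a1 and Cox7a2). Over all genes tested, 15.1% were lower in that fit. The calls lost there were those of Ndufa2, Ndufs5, Ndufb10, Ndufa11, Cox8a and Atp5g2. The members' median moved to -0.07 with 57 of 92 members below zero, and the medians of complexes I and III were -0.05 and -0.03. Both corrections thus kept more lower than higher calls among members. Over all genes, lower calls also outnumbered higher ones, at 2052 and 1910 after the first correction and 2135 and 1852 after the second. The members' median came nearer to that of all genes after the second. Short transcripts are a property of the members themselves, so a trend by length and a change of these mRNAs cannot be told apart.

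**Figure D5:**
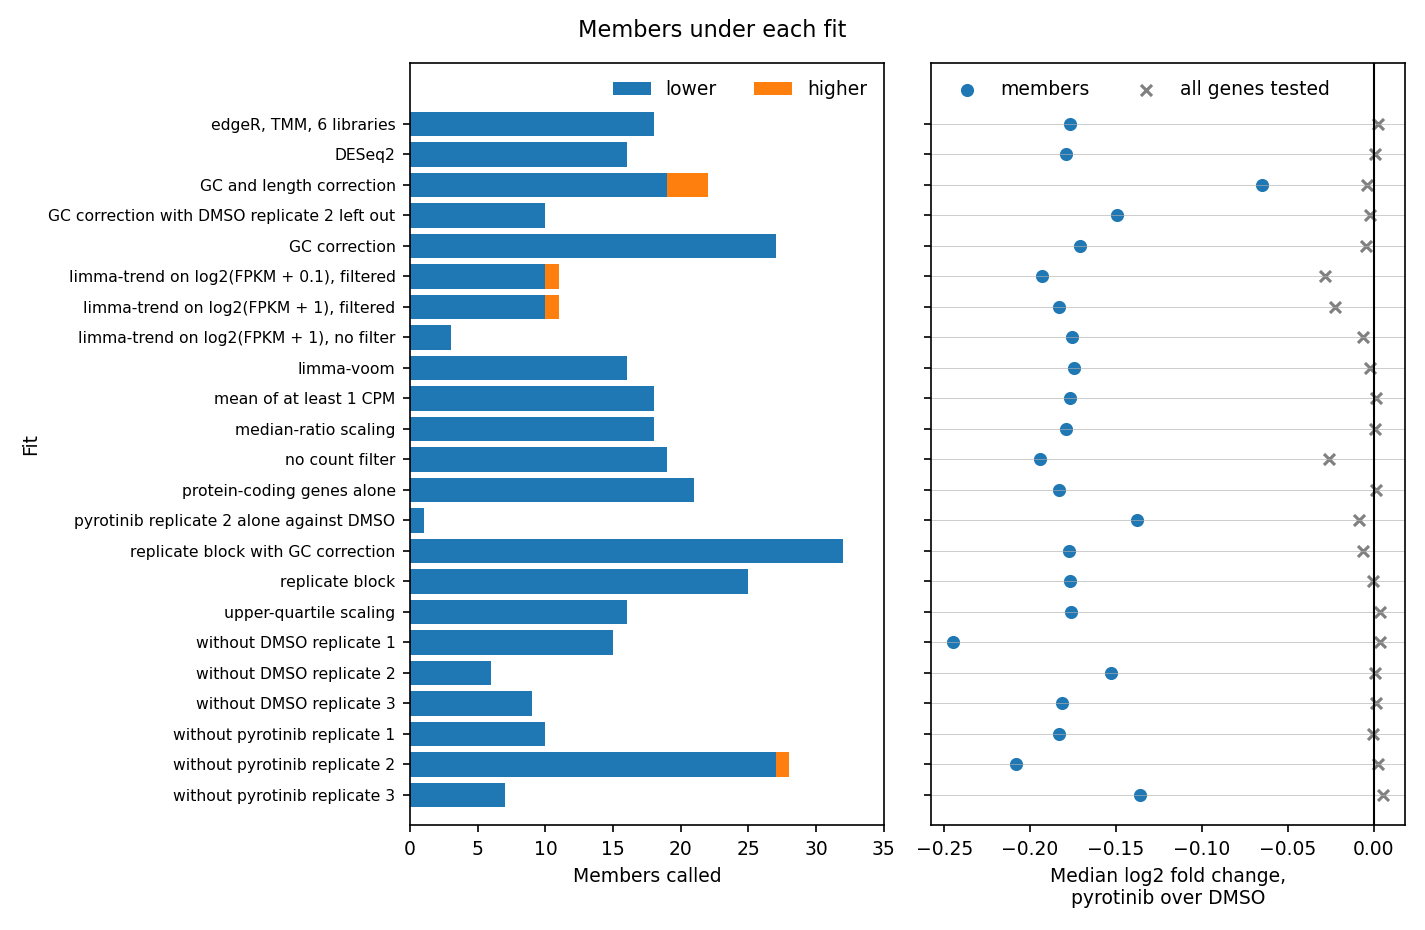
Number of members called lower and higher (left) and median log2 fold change of members and of all genes tested (right), pyrotinib over DMSO, under each fit. Lower calls run from 1 with pyrotinib replicate 2 alone to 32 with a replicate block and GC correction, and the members' median stays below that of all genes in each fit shown, nearest to it at -0.07 after GC and length correction.

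The NRF1 motif was found in 27 of the 80 members with a RefSeq promoter of 300 bases (33.8%), against 9.68% of 17492 protein-coding genes. The YY1 motif was found in 11 (13.8%, against 3.64%) and the ETS motif CCGGAAGT in 5 (6.25%, against 5.69%), both strands being searched. Among tested members, 9 of the 27 with the NRF1 motif were called lower (33.3%), their median log2 fold change being -0.25. Without it 7 of 49 were (14.3%), with a median of -0.14, against 12.8% of all genes tested. For YY1 the counts were 4 of 11 with the motif (36.4%) and 12 of 65 without it (18.5%). For the ETS motif they were 1 of 5 (20%) and 15 of 71 (21.1%). A match is a description of letters, and no test was made of these splits.

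Genes around the complexes gave a mixed account. Of 38 tested assembly factors outside the naming rule, 5 were lower (13.2%) and 3 higher, with a median of 0.11. Over all genes tested, 12.8% were called lower and 13.2% higher, so the lower calls were near the general share. Higd1a, a hypoxia-inducible partner of complex IV, fell 2.18-fold (37.1 CPM with pyrotinib, 80.7 with DMSO, adjusted p = 0.00011) and its relative Higd2a 1.5-fold (15.2 CPM with pyrotinib, 22.9 with DMSO, adjusted p = 0.0043), whereas Sdhaf2, which attaches flavin to Sdha, rose 1.34-fold (47.6 CPM with pyrotinib, 35.6 with DMSO, adjusted p = 0.0068). These 3 were called in all 6 fits without 1 library. The count of lower calls in this list became 8 when pyrotinib replicate 2 was left out and 2 when pyrotinib replicate 3 was, and it was 3 without pyrotinib replicate 1 or without DMSO replicate 2 or 3. Higher calls were 5 without pyrotinib replicate 2 and 1 or 2 in the other 5 fits.

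Of 19 tested regulators of respiratory gene transcription, 3 were lower (15.8%, against 12.8% of all genes tested) and 3 higher, with a median of 0.03. That even split did not hold after the GC correction, which gave 4 lower and 1 higher with a median of -0.07. Nrf1, Ppargc1a and Sp1 then passed as lower (adjusted p = 0.023, 0.032 and 0.034). Correction for GC and length also gave 4 lower and 1 higher, with a median of -0.095. Ppargc1b, a coactivator of mitochondrial biogenesis, fell 1.63-fold (8.20 CPM with pyrotinib, 13.4 with DMSO, adjusted p = 0.0053). Lrpprc, which stabilises mitochondrial mRNAs, rose 1.36-fold (87.6 CPM with pyrotinib, 64.2 with DMSO, adjusted p = 0.0035). Both were called in all 6 fits without 1 library. Hif1a rose 1.26-fold (adjusted p = 0.012), but no longer passed once GC was corrected for (adjusted p = 0.090) or when DMSO replicate 2 or 3 or pyrotinib replicate 1 was left out (0.061 to 0.082). Without 1 library the list had 1 to 6 lower and 1 to 5 higher calls, the most in both directions without pyrotinib replicate 2.

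Enzymes that feed the chain and general mitochondrial proteins were lower more often than higher. In the TCA cycle and pyruvate dehydrogenase, 8 of 20 were lower (40%, against 12.8% of all genes tested) and 0 higher (median -0.19). The falls were led by Idh2 (1.40-fold, adjusted p = 0.00063), Ogdh (1.37-fold, adjusted p = 0.00067) and citrate synthase, Cs (1.3-fold, adjusted p = 0.0035). At the outer membrane and among carriers and general mitochondrial proteins, 11 of 20 were lower (55%, against the same 12.8%) and 1 higher (median -0.29). There the chaperone Hspa9 fell 1.32-fold (adjusted p = 0.0010), the import factor Timm44 1.36-fold (0.0025) and the ADP/ATP carrier Slc25a5 1.42-fold (0.0043), while Opa1, which fuses inner membranes, rose 1.29-fold (0.0047). All 7 of these genes were called in each fit without 1 library.

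The counts themselves moved with single libraries. The TCA list had 3 lower without DMSO replicate 2, 5 without DMSO replicate 3 and 4 without pyrotinib replicate 1 or 3. The outer membrane and carrier list had 3 lower without DMSO replicate 2, 4 without DMSO replicate 3 and 5 without pyrotinib replicate 1 or 3. Among 19 tested genes of quinone synthesis and other electron donors, 3 were lower (15.8%, against 12.8% of all genes tested) and 0 higher. The 3 were Coq8a, Coq8b and Etfb. Leaving out DMSO replicate 2 or 3 or pyrotinib replicate 3 left 0 of these calls, and leaving out pyrotinib replicate 1 left 1.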

How the data were processed

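The deposited table of counts holds the authors' whole-number reads per gene for 6 libraries, and a second deposited table holds the authors' FPKM values. The notes on processing from the submitters name build mm10, HISAT2 2.0.5, featureCounts 1.5.0-p3, fastp and, in version 1.20.0, DESeq2. Annotation release, strand setting and handling of multi-mapped reads: not given in the sources used here. Without strand, overlapping genes cannot be told apart.

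Counts were tested in R 4.3.3 with edgeR 4.0.16: filterByExpr defaults (minimum count 10, minimum total 15), TMM scaling, two-sided quasi-likelihood F-test, Benjamini-Hochberg adjustment over 14125 genes, threshold 0.05. CPM are TMM-scaled, an approximate SE was derived from the log2 fold change and its F statistic, and members' p-values are those of the whole table. Libraries of a group were not copies of each other (chi-square per degree of freedom 4.15 to 16.2). The members, lists and tests were chosen with earlier results of these data known.

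Alternatives were DESeq2 1.42.0, limma 3.58.1 (voom, and trend on log2 FPKM with pseudocounts 1 and 0.1), other filters and scalings, the replicate number as a block, 1 library left out at a time, pyrotinib replicate 2 alone, and a lowess correction (span 0.3) for transcript GC. A correction for GC and length, and the GC correction without DMSO replicate 2, were added after seeing the data. GC and length came from the longest GENCODE M21 transcript; 92 of 99 members had identical positions there. Processed pseudogene copies were found with BLAST+ 2.17.0 (at least 90% identity over 200 bases). Values in every library are given for up to 6 called members per complex with the smallest adjusted p, for core subunits and isoform sets in part as means or fold changes, and for the largest rise and fall among members with at least 5 CPM on average; Ndufaf5 and Atp5s were chosen after their values were seen. The 5 promoters printed were likewise chosen after seeing values.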

Additional observations from a re-analysis of the deposited data

How the results depend on the processing

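Lower calls among members numbered 27 after GC correction and 25 with a replicate block, against 18. They were 10 after GC correction without DMSO replicate 2, 10 by limma-trend on filtered FPKM with either pseudocount, 3 without that filter, 1 with pyrotinib replicate 2 alone, 32 with the block and GC correction, 5 at an adjusted p under 0.01, and 6 to 27 without 1 library. Higher calls were 3 after GC and length correction, 1 by limma-trend on filtered FPKM with either pseudocount, and 0 to 1 without 1 library. The members' median log2 fold change was -0.065 after GC and length correction and -0.14 to -0.25 without 1 library. Cox6a1, at -0.005 in the 6-library test, was higher after GC and length correction (0.31, adjusted p = 0.017); the cause was not tested.

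Over all genes, lower calls were 337 by limma-trend without an FPKM filter, 526 with pyrotinib replicate 2 alone and 988 to 2611 without 1 library. Higher calls were 1235 after GC correction without DMSO replicate 2, 927 and 916 by limma-trend on filtered FPKM with pseudocounts 0.1 and 1, 224 without that filter, 529 with pyrotinib replicate 2 alone and 968 to 2615 without 1 library. The members' median stayed below that of all genes in each alternative run.

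Whether replicate numbers pair the libraries was not settled. Deviations of same-numbered libraries correlated weakly, at 0.005, 0.08 and 0.02 for replicates 1, 2 and 3. Libraries of different number correlated at -0.07 to 0.06, the highest being DMSO replicate 1 with pyrotinib replicate 3. Over all genes the replicate block gave 2141 lower and 2124 higher calls, against 1805 and 1862 without it. With the replicate block, 7 further members were called lower and all 18 kept their calls. Depth limits the 20 tested members under 10 CPM and the 7 members not tested. Intervals from a count of 0 cover counting error only. Levels of Ndufa12, Cox7a2l, Atp5g1, Ndufab1 and Atp5h are uncertain, since reads on their pseudogene copies came to 427%, 93.8%, 84.7%, 27.5% and 18% of their own. The level of Cycs is uncertain as well, since it has pseudogene copies and the handling of multi-mapped reads is not given.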
